A study of Danio rerio with 2 samples.

Results

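Zebrafish chromosomes 5 and 7 each carried a stretch with more called peaks of accessible DNA in 1 of 2 melanoma cell lines. Farther along the same chromosome, each carried a stretch with more such peaks in the other line. The regions described are the called peaks whose highest point, the summit, lay on chromosome 5 or 7, without the 500 kb that follow 64 Mb on chromosome 7. They numbered 6492 of 63332 peaks on the numbered chromosomes in the line zcrest 1 and 5474 of 53129 in the line zcrest 2. The left-out 500 kb held 12 peaks in zcrest 1 and 25 in zcrest 2. The 4 stretches compared were chromosome 7 at 25 to 45 Mb and at 55 to 60 Mb, and chromosome 5 at 50 to 55 Mb and from 60 Mb to the end, where the last peak ended at 75.7 Mb. The other 4532 peaks of zcrest 1 and 3865 of zcrest 2 lay outside these stretches. The stretches had been picked from the ratio of reads between these same 2 libraries, so every comparison of the lines below is a description without a test.

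The study profiled accessible DNA with ATAC-seq in 2 zebrafish melanoma cell lines, from 1 library of 50000 cells per line, harvested at 80% confluence. Both lines carried the listed p53 and BRAF alterations, the item Na, which the labels do not expand, the crestin:EGFP reporter and MiniCoopR alone, and both had gone through more than 20 passages. Neither library had a replicate or a normal counterpart, so the values compare these 2 libraries and not the lines in general. Positions follow the build Zv9, in which no gene annotation was used here, so the regions carry no gene names and the labelled cell type was not checked against its markers. The genome-wide background on which peaks were called was 1.57 reads in zcrest 1 and 2.01 in zcrest 2, and the total number of reads is not given in the sources used here.

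In ATAC-seq a transposase cuts DNA that is not wrapped tightly in nucleosomes, and reads pile up at promoters, enhancers and other sites held open by bound factors. p53 is a tumour suppressor and BRAF a kinase of the growth factor pathway that is often mutated in melanoma. crestin is a gene of the zebrafish neural crest, the embryonic tissue from which pigment cells arise, and the MiniCoopR construct rescues pigment cells by supplying the melanocyte regulator mitfa. In a bulk library, a region open in fewer cells and a region less open in each cell cannot be told apart. A peak call also depends on the reads over the surrounding sequence, and no cause of a difference between the lines was tested here.

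On chromosome 7 at 25 to 45 Mb, zcrest 1 had 894 peaks and zcrest 2 had 316, or 0.353 times as many (95% exact binomial interval of the ratio 0.310 to 0.402). Between 55 and 60 Mb zcrest 1 had 177 and zcrest 2 had 231, or 1.31 times as many (1.07 to 1.60). Chromosome 5 at 50 to 55 Mb held 183 peaks of the first line and 77 of the second, or 0.421 times as many (0.318 to 0.552). From 60 Mb to its end it held 706 and 985, or 1.40 times as many (1.27 to 1.54). Over all numbered chromosomes the ratio was 0.839. So the lower stretches lay below the ratio of the whole lists and the upper stretches above it, on both chromosomes, and the intervals within a chromosome did not overlap. With a -log10 q of 10 or more in both lists the ratio at 55 to 60 Mb of chromosome 7 was 1.19, with an interval that included 1 (0.897 to 1.58). The whole lists at that limit, 29003 peaks of zcrest 1 and 21704 of zcrest 2, gave a ratio below this interval. These intervals and those below cover counting error only and take peaks as independent, which neighbouring peaks are not.

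The number of peaks moved more in zcrest 2 than in zcrest 1 when each line was set against its own mean density. zcrest 1 had 46.7 peaks per Mb over the genome and zcrest 2 had 39.2. In the lower stretch of chromosome 7, zcrest 1 stood at 0.958 times its mean (exact Poisson interval 0.896 to 1.02) and zcrest 2 at 0.403 times (0.360 to 0.451). For 55 to 60 Mb the values were 0.758 (0.651 to 0.879) and 1.18 (1.03 to 1.34). On chromosome 5 at 50 to 55 Mb, zcrest 1 stood at 0.784 (0.675 to 0.906) and zcrest 2 at 0.393 (0.310 to 0.492). From 60 Mb on, zcrest 1 stood at 0.964 (0.895 to 1.04) and zcrest 2 at 1.60 (1.51 to 1.71). Across the 4 stretches zcrest 1 thus ranged from 0.758 to 0.964 of its mean and zcrest 2 from 0.393 to 1.60.

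**Figure D1:**
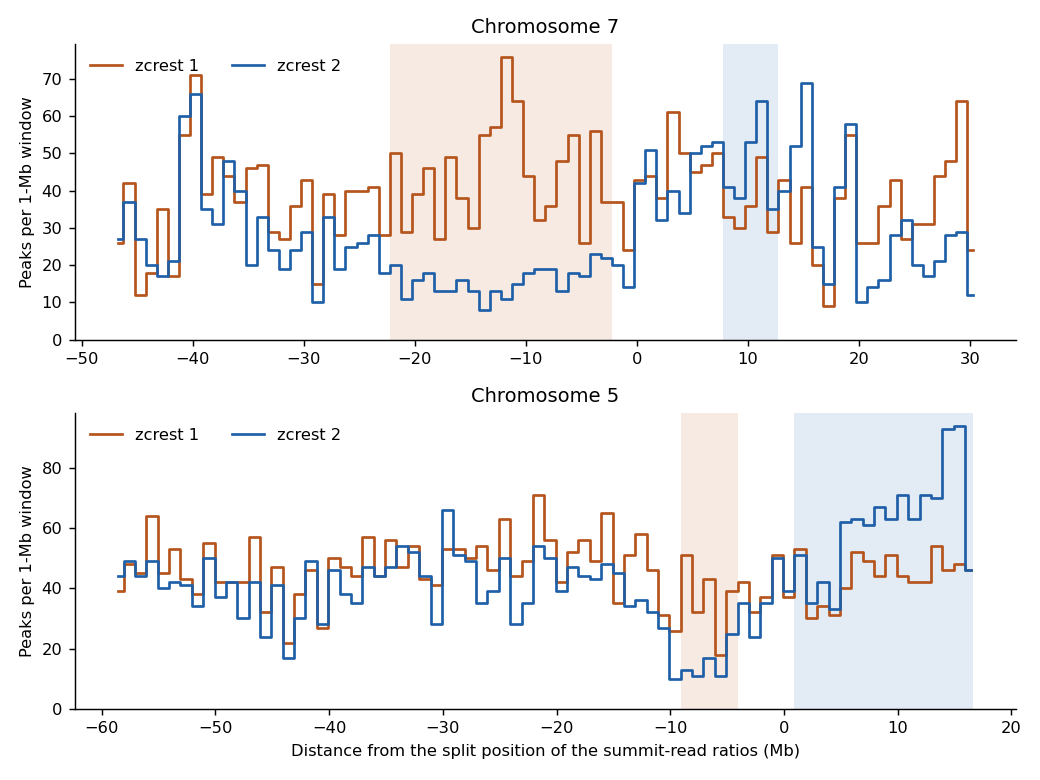
Number of peaks in windows of 1 Mb (y axis) along chromosome 7 (upper panel) and chromosome 5 (lower panel) in zcrest 1 (orange) and zcrest 2 (blue). The x axis is the distance in Mb from the position that best splits the summit-read ratios; orange shading marks the compared stretch leaning to zcrest 1 and blue shading the one leaning to zcrest 2. Each window of the orange stretches has more peaks of zcrest 1; the last window of each chromosome and the one with the left-out 500 kb are partial.

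Single windows of 1 Mb showed how even the stretches were. All 20 windows of chromosome 7 at 25 to 45 Mb had more peaks of zcrest 1, where 68.4% of the windows of the genome did, and all 20 had at least 1.5 times as many, where 28.9% did. Numbers ran from 26 to 76 in zcrest 1, with a median of 45, and from 8 to 23 in zcrest 2, with a median of 16, so the ranges of the lines did not overlap. All 5 windows at 55 to 60 Mb had more peaks of zcrest 2, against 29.4% of the genome's windows, with 29 to 49 in zcrest 1 and 35 to 64 in zcrest 2. None of these 5 reached 1.5 times as many, which 4.67% of the genome's windows did.

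On chromosome 5, all 5 windows at 50 to 55 Mb had at least 1.5 times as many peaks of zcrest 1, with 18 to 51 in zcrest 1 and 11 to 25 in zcrest 2. Of the 16 windows from 60 Mb on, 14 had more peaks of zcrest 2, and 7 had at least 1.5 times as many. The exceptions were the first window, with 53 peaks of zcrest 1 and 51 of zcrest 2, and the last, partial window, with 46 in each line. The windows at 73 and 74 Mb were the most crowded in zcrest 2, with 93 and 94 peaks against 46 and 48 in zcrest 1.

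At the edges of the stretches the windows just outside did not always differ from those just inside. On chromosome 7 the window before 25 Mb had 28 peaks of zcrest 1 and 18 of zcrest 2, and the window after it 50 and 20. The window from 44 Mb had 37 and 22, and the next, outside the stretch, 37 and 20. On both sides of 55 Mb the numbers were 50 and 53, then 33 and 41, and around 60 Mb they were 29 and 35, then 43 and 40. Chromosome 5 had 26 and 10 in the window just below 50 Mb, then 51 and 13. Around 55 Mb it had 39 and 25, then 42 and 35, and around 60 Mb 37 and 39, then 53 and 51. The excess of zcrest 1 therefore reached outside the compared stretch at both edges on chromosome 7 and at 50 Mb on chromosome 5.

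The overlap between the lines changed in opposite directions in their lists. Sharing was defined as an overlap of 1 bp or more with a peak of the other line, which held for 54.7% of the peaks of zcrest 1 and 64.9% of those of zcrest 2 over the genome. On chromosome 7 at 25 to 45 Mb, 264 of 894 peaks of zcrest 1 were shared, or 29.5% (exact binomial interval 26.6% to 32.6%), and 266 of 316 peaks of zcrest 2, or 84.2% (79.7% to 88.0%). At 55 to 60 Mb the shares were 125 of 177, or 70.6% (63.3% to 77.2%), and 126 of 231, or 54.5% (47.9% to 61.1%). The share in zcrest 1 was lower by 41.1 percentage points in the first stretch (Newcombe interval of first minus second -47.9 to -33.4) and that in zcrest 2 was higher by 29.6 points (21.9 to 37.02). In each stretch the shared peaks were nearly as many in one list as in the other, so the line with fewer peaks has the higher share. The opposite directions are therefore tied to the peak numbers above and are not a separate result.

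Chromosome 5 gave the same order, with a smaller gap in zcrest 2. At 50 to 55 Mb, 51 of 183 peaks of zcrest 1 were shared, or 27.9% (21.5% to 35.0%), and 51 of 77 of zcrest 2, or 66.2% (54.6% to 76.6%). From 60 Mb on the shares were 517 of 706, or 73.2% (69.8% to 76.5%), and 508 of 985, or 51.6% (48.4% to 54.7%). The difference between the stretches was -45.4 points in zcrest 1 (-52.1 to -37.7) and 14.7 points in zcrest 2 (3.12 to 24.7). The last difference was the smallest of the 4, and its interval included 0 with 50% reciprocal overlap (8.80 points, -2.62 to 20.0), with a -log10 q of at least 10 (8.55 points, -12.3 to 25.3), with the edges of the stretches moved inward by 1 Mb (11.4 points, -4.57 to 25.4) and without the windows at 73 to 75 Mb (10.8 points, -0.777 to 21.0).

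In zcrest 1 the gap in overlap on chromosome 7 was present in weak and strong peaks alike. Peaks were divided into 4 classes of about equal size by the deposited -log10 q of the whole list of each line, class 4 being the strongest. In zcrest 1 the weakest class was shared in 28.8% and the strongest in 82.2% over the genome. At 25 to 45 Mb these shares were 19 of 200, or 9.50%, and 132 of 211, or 62.6%. At 55 to 60 Mb they were 14 of 36, or 38.9%, and 48 of 48, or 100% (exact lower limit 92.6%). So each of the 48 strongest-class peaks of zcrest 1 at 55 to 60 Mb had a counterpart, and many of the 211 at 25 to 45 Mb had none.

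In zcrest 2, where 32.7% of the weakest and 94% of the strongest class were shared over the genome, the weakest class was shared in 31 of 48 cases at 25 to 45 Mb (64.6%, 49.5% to 77.8%) and in 8 of 44 at 55 to 60 Mb (18.2%, 8.19% to 32.7%). The strongest class was shared in 52 of 55 and in 59 of 68 cases, or 94.5% and 86.8%, and these intervals overlapped. On chromosome 5 the strongest class of zcrest 1 was shared in 22 of 33 cases at 50 to 55 Mb (66.7%, 48.2% to 82.0%) and in 152 of 171 from 60 Mb on (88.9%, 83.2% to 93.2%).

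**Figure D2:**
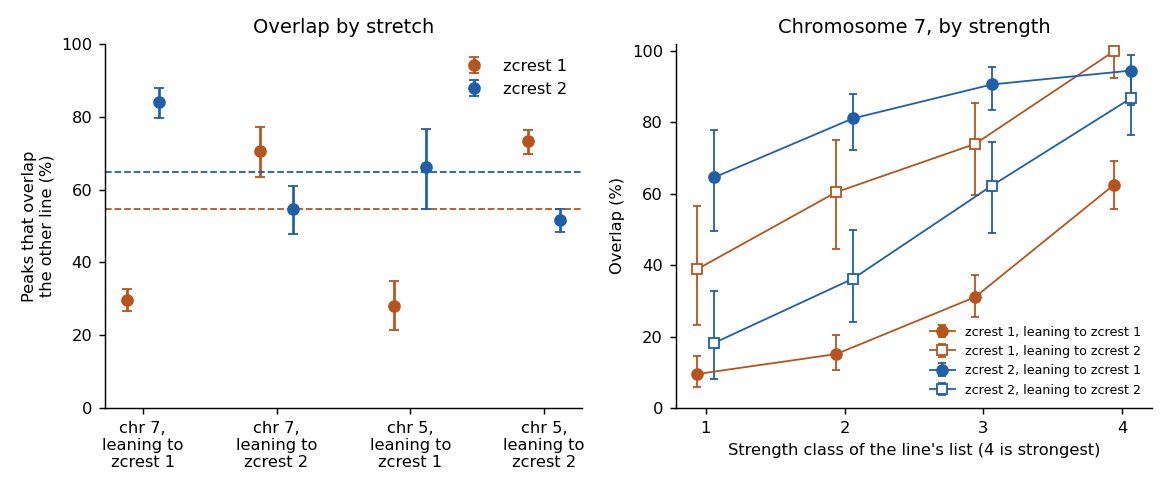
Left: share of peaks in percent that overlapped a peak of the other line, by stretch, with exact 95% binomial intervals; dashed lines are the shares over all numbered chromosomes, 54.7% in zcrest 1 (orange) and 64.9% in zcrest 2 (blue). Right: the same share on chromosome 7 by strength class, filled for 25 to 45 Mb and open for 55 to 60 Mb. The filled points of zcrest 1 lie lowest in each class, between 9.50% and 62.6%.

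Peaks found in 1 line only, those more than 1 kb from any peak of the other line, made up 41.6% of zcrest 1 and 30.8% of zcrest 2 over the genome. The stretch of chromosome 7 at 25 to 45 Mb had 596 of zcrest 1 (66.7% of its peaks there) and 47 of zcrest 2 (14.9%). The stretch at 55 to 60 Mb had 49 (27.7%) and 96 (41.6%). Chromosome 5 at 50 to 55 Mb held 127 of zcrest 1 (69.4%) and 22 of zcrest 2 (28.6%), and from 60 Mb on 162 (22.9%) and 430 (43.7%). Of all single-line peaks, zcrest 1 held 92.7% (90.4% to 94.6%) and 33.8% (26.2% to 42.1%) in the 2 stretches of chromosome 7 and 85.2% (78.5% to 90.5%) and 27.4% (23.8% to 31.1%) in those of chromosome 5, where it held 61.7% and zcrest 2 held 38.3% over the genome. The majority thus passed from zcrest 1 to zcrest 2 between the stretches of each chromosome. When both lists were limited to a -log10 q of 10 or more, the share of zcrest 1 was 41.6% at 55 to 60 Mb of chromosome 7 (30.4% to 53.4%) and 41.1% in the upper stretch of chromosome 5 (35.1% to 47.3%). The first of these intervals included 50%, and both lay below the 61.7% of the full lists over the genome. The share over the genome at that limit is not given here.

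Strong peaks were found among the single-line peaks of every stretch. Over the genome, 26.7% of the single-line peaks of zcrest 1 and 13.2% of those of zcrest 2 had a -log10 q of 10 or more. In zcrest 1 the share was 205 of 596 on chromosome 7 at 25 to 45 Mb, or 34.4% (30.6% to 38.4%), and 12 of 49 at 55 to 60 Mb, or 24.5% (13.3% to 38.9%). On chromosome 5 it was 39 of 127 in the lower stretch, or 30.7% (22.8% to 39.5%), and 48 of 162 in the upper one, or 29.6% (22.7% to 37.3%). These 2 shares were close to each other, and both intervals included the value over the genome. In zcrest 2 the strong single-line peaks numbered 8 of 47 and 20 of 96 on chromosome 7 and 4 of 22 and 59 of 430 on chromosome 5. The median summit of the single-line peaks rested on 13 to 15 reads in both lines and all 4 stretches.

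**Figure D3:**
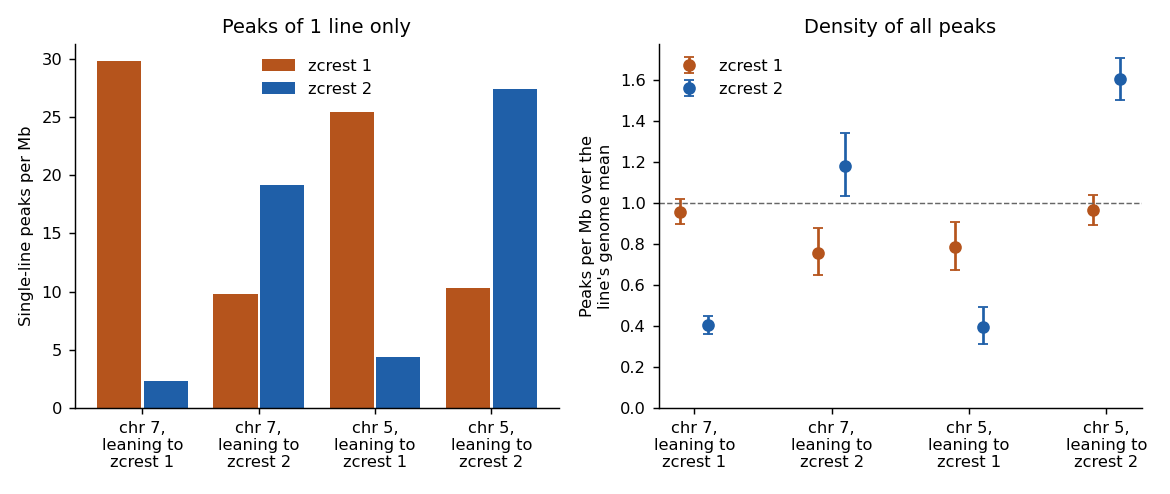
Left: peaks of 1 line only per Mb in the 4 stretches, zcrest 1 in orange and zcrest 2 in blue; the counts behind the bars are 596 and 47, 49 and 96, 127 and 22, and 162 and 430. Right: density of all peaks over the line's own mean over the genome (dashed line at 1), with exact 95% Poisson intervals. zcrest 2 spans 0.393 to 1.60 and zcrest 1 spans 0.758 to 0.964.

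A run of windows inside the lower stretch of chromosome 7 differed most. From 33 to 37 Mb, a span picked after its values were seen, zcrest 1 had 252 peaks and zcrest 2 had 47. That was 1.35 times the mean density of zcrest 1 (1.19 to 1.53) and 0.30 times that of zcrest 2 (0.220 to 0.399). Single-line peaks numbered 197 in zcrest 1 and 3 in zcrest 2, and 44 of the 47 peaks of zcrest 2 were shared. The window from 35 Mb had 76 peaks of zcrest 1 and 11 of zcrest 2, all 11 shared, and the window from 33 Mb had 55 and 8. Without the 4 windows the ratio of peak numbers in the stretch was 0.419 in place of 0.353, and zcrest 1 held 90.1% of the single-line peaks in place of 92.7%.

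Long gaps without a peak of zcrest 2 filled most of the lower stretches. Fewer peaks leave longer gaps, so this is tied to the peak numbers above and is not a separate result. The share of the peaks of zcrest 1 that lay in such gaps over the genome is not given here. Over the genome 3.55% of the gaps between neighbouring peaks of zcrest 2 were at least 100 kb long, against 2.04% in zcrest 1, and such gaps took up 21.0% and 13.3% of the sequence. On chromosome 7 at 25 to 45 Mb, 69 of 315 gaps of zcrest 2 were that long and took up 63.0% of the stretch, and 407 of the 894 peaks of zcrest 1 lay inside them. The corresponding gaps of zcrest 1 took up 17.3% of the stretch and held 10 peaks of zcrest 2. The longest gap of zcrest 2, from 33772525 to 34230377, was 458 kb long and held 10 peaks of zcrest 1, none with more than 20 reads at the summit. On chromosome 5 at 50 to 55 Mb, 16 of 76 gaps of zcrest 2 were that long. They took up 61.6% of the stretch and held 78 of the 183 peaks of zcrest 1. Such gaps of zcrest 1 took up 24.4% there. Its longest gap, of 354 kb, was longer than that of zcrest 2, of 347 kb. From 60 Mb on such gaps took up 2.32% in zcrest 2 and 7.64% in zcrest 1. On chromosome 7 at 55 to 60 Mb they took up 11.2% in zcrest 2 and 16.8% in zcrest 1.

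The reads at regions called in both lines differed in the same order. Peaks were matched one to one by their largest overlap, which gave 3441 pairs on the 2 chromosomes of 33879 in all, and the log2 of the summit reads of zcrest 2 over those of zcrest 1 was centred on the median of all pairs. On chromosome 7 at 25 to 45 Mb the median was -0.66 over 262 pairs (order-statistic 95% interval -0.73 to -0.57), with 28 reads at the median summit in zcrest 1 and 17 in zcrest 2. Between 55 and 60 Mb it was 0.43 over 125 pairs (0.30 to 0.59), with 22 and 31 reads. On chromosome 5 at 50 to 55 Mb it was -0.67 over 51 pairs (-0.89 to -0.20), with 27 and 17 reads, and from 60 Mb on it was 0.60 over 500 pairs (0.53 to 0.65), with 21 and 32 reads. This ratio, in windows of 5 Mb, is the measure by which the stretches were chosen.

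Most pairs lay on the side of 0 to which their stretch leaned, but fewer were shifted by 1.5-fold or more. On chromosome 7, 84.4% of the pairs at 25 to 45 Mb lay below 0 and 72.8% at 55 to 60 Mb above it. On chromosome 5, 74.5% at 50 to 55 Mb lay below 0 and 82.2% from 60 Mb on above it. Of all pairs, 50.0% lay below 0 and 49.7% above. Over the genome 21.6% of the pairs were at least 1.5-fold lower in zcrest 2 than the centre and 18.4% at least 1.5-fold higher. The first held for 146 of 262 pairs on chromosome 7 at 25 to 45 Mb (55.7%) and for 27 of 51 on chromosome 5 at 50 to 55 Mb (52.9%), and the second for 9 and 2. Of the pairs at 55 to 60 Mb of chromosome 7, 13 of 125 pairs were 1.5-fold lower and 52 were 1.5-fold higher (41.6%). In the upper stretch of chromosome 5 the numbers were 41 and 257 of 500 (8.20% and 51.4%). In both upper stretches the matched peak was wider in zcrest 2 in 68.0% and 65.8% of the pairs, and in both lower ones in 17.9% and 31.4%, against 49.0% of all pairs.

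Windows of 1 Mb inside a stretch were mostly of the same sign in the read ratio. The stretches were chosen by that ratio, so the sign inside them was largely set in advance. The share of the genome's windows on either side of 0 is not given here. On chromosome 7, 19 of the 20 windows at 25 to 45 Mb had a median below 0, down to -1.67 in the window from 34 Mb. The exception was the window from 42 Mb, with 0.18 over 13 pairs, where zcrest 1 still had 26 peaks and zcrest 2 had 17. All 5 windows at 55 to 60 Mb lay above 0, from 0.16 to 0.59. On chromosome 5, 4 of 5 windows at 50 to 55 Mb lay below 0, and the window from 54 Mb was at 0.15 over 15 pairs. All 16 windows from 60 Mb on lay above 0, from 0.19 to 0.79.

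**Figure D4:**
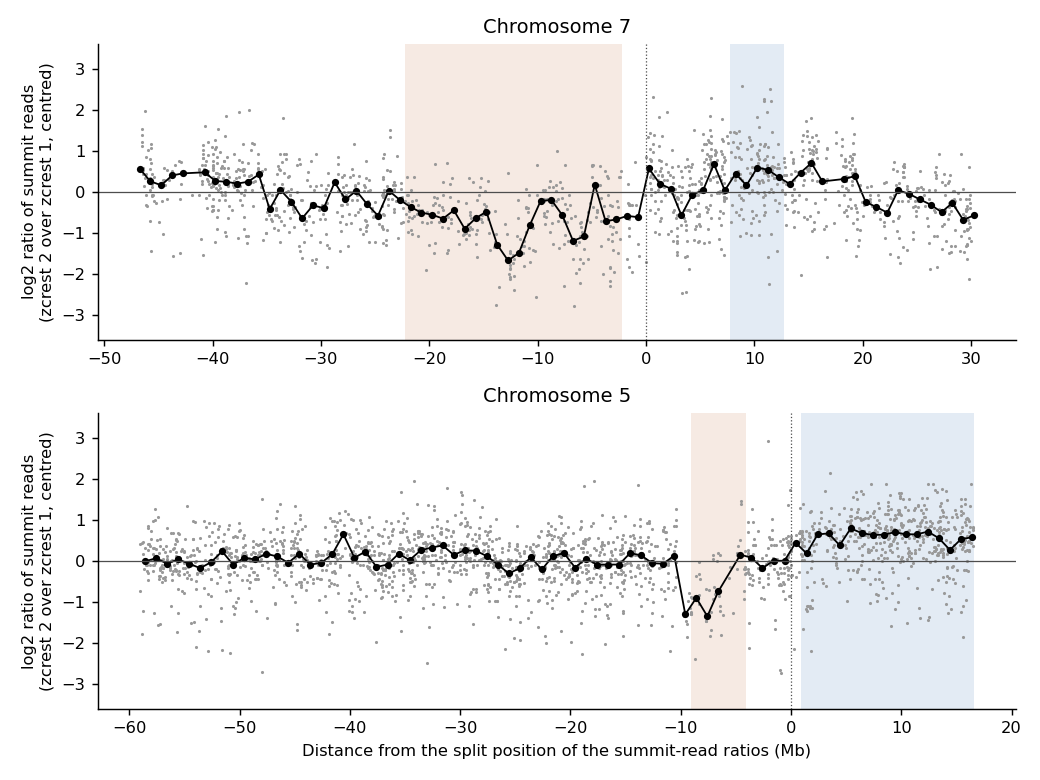
Centred log2 ratio of summit reads (y axis, zcrest 2 over zcrest 1) of each matched pair (grey) and the median of each 1-Mb window with at least 5 pairs (black) along chromosome 7 (upper panel) and chromosome 5 (lower panel). The x axis is the distance in Mb from the position that best splits the ratios (dotted line); shading marks the compared stretches. Window medians reach -1.67 inside the orange stretch of chromosome 7 and lie at 0.19 to 0.79 in the blue stretch of chromosome 5.

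The change on chromosome 7 could be placed more closely than that on chromosome 5. When the pairs from 25 to 60 Mb were divided into 2 runs with the least deviation from their medians, the division fell between summits at 47192787 and 47267620, with a median of -0.65 over the 284 pairs before it and 0.29 over the 349 after it. Single-line peaks, which the ratio does not include, divided between 46887267 and 46913878, with 92.3% of zcrest 1 before and 46.6% after. They were called from the same reads, so this division is not independent of the first. The window from 46 Mb had 24 peaks of zcrest 1 and 14 of zcrest 2, and the window from 47 Mb had 43 and 42. Beyond the division the lines did not lean 1 way throughout. The window from 50 Mb had 61 and 40 peaks and a median ratio of -0.57, and zcrest 1 held 81.8% of its single-line peaks. The window from 51 Mb had 50 and 34 peaks, -0.07 and 75.9%. A division into 2 runs always gives a position and cannot show such a return. On chromosome 5 from 50 Mb on, the ratios divided between 59075632 and 59091182, with medians of -0.18 and 0.59. Single-line peaks divided at 56516638 to 56707955 instead, with 82.7% and 29.4% of zcrest 1. The windows between 55 and 60 Mb stood between the stretches, with 199 peaks of zcrest 1, 183 of zcrest 2 and a median ratio of 0.01 (-0.16 to 0.19, 124 pairs).

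In the ratio of reads the drop at the start of the lower stretch of chromosome 5 was abrupt. The window from 48 Mb had 31 peaks of zcrest 1, 27 of zcrest 2 and a median ratio of 0.13. The window from 49 Mb, just outside the compared stretch, had 26 and 10 peaks and a median ratio of -1.30 over 8 pairs. Before it, at 0 to 48 Mb, the lines were close to the rest of the genome. There were 2301 peaks of zcrest 1 and 1993 of zcrest 2, or 0.866 times as many (0.815 to 0.920), the median ratio of reads was 0.03 over 1359 pairs, and zcrest 1 held 61.1% of the single-line peaks (58.5% to 63.7%). In peak number the end of that span leaned to zcrest 1, but so did some windows farther inside it, while others leaned to zcrest 2. The windows from 32 and 35 Mb had 54 and 35, and 44 and 28 peaks. Over the genome 28.9% of the windows had at least 1.5 times as many peaks of zcrest 1. The windows from 45, 46 and 47 Mb had 51 and 34, 58 and 36, and 46 and 32 peaks. Their median ratios of reads were 0.13, -0.05 and -0.07. The window from 44 Mb had 35 and 45 peaks.

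Outside the compared stretches, too, the ratio of reads on chromosome 7 lay on both sides of 0. At 0 to 12 Mb zcrest 1 had 445 peaks and zcrest 2 had 429, with a median ratio of reads of 0.31 (0.22 to 0.42). At 12 to 25 Mb the numbers were 459 and 308, with a median ratio of -0.24 (-0.35 to -0.09). From 67 Mb to the end they were 400 and 227, with -0.35 (-0.46 to -0.23). These spans were picked after the windows had been seen. The window from 5 Mb stood apart, with 17 peaks of zcrest 1 and 21 of zcrest 2 of which 1 in each line was shared.

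In zcrest 2 the local background, like the summit reads of matched pairs, was lower in the lower stretch of each chromosome than in the upper one. In zcrest 1 the order of the stretches in background over all peaks differed between the chromosomes. The caller's local background is the mean number of reads over the surrounding sequence, peaks included, with the genome-wide value as its floor, and 22.3% of the peaks of zcrest 1 and 19.8% of those of zcrest 2 lay at the floor. On chromosome 7 at 25 to 45 Mb, 226 of 316 peaks of zcrest 2 lay there (71.5%, 66.2% to 76.4%) and 306 of 894 of zcrest 1 (34.2%, 31.1% to 37.4%). Between 55 and 60 Mb, 20 of 231 of zcrest 2 did (8.66%, 5.37% to 13.05%) and 88 of 177 of zcrest 1 (49.7%, 42.1% to 57.3%). In zcrest 2 the floor held 63.6% of the peaks of chromosome 5 at 50 to 55 Mb and 3.35% of those from 60 Mb on. In zcrest 1 the shares were 36.6% and 26.5%. The median background of zcrest 2 was 2.01, 3.28, 2.01 and 3.8 reads in the 4 stretches, in the order chromosome 7 lower and upper, chromosome 5 lower and upper, and that of zcrest 1 was 1.88, 1.58, 1.82 and 2.02. On chromosome 5 the median background of zcrest 1 over all its peaks was thus higher in the upper stretch. At its matched pairs the background was lower there (2.44 and 2.16), as were the summits (27 and 21 reads). Matched pairs hold only the peaks of zcrest 1 that had a counterpart. Over all peaks of zcrest 1 the median summit was 16 reads in the lower and 18 in the upper stretch of chromosome 5. For chromosome 7 it was 17 and 18 reads. On chromosome 7 the background of zcrest 1 at matched pairs was 2.34 in the lower and 1.72 in the upper stretch.

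Fold enrichment, the authors' ratio of summit reads to local background with 1 added to each, differed between the lines far less than the reads did. For the matched pairs of chromosome 7 the centred log2 ratio of fold enrichment was -0.21 at 25 to 45 Mb (-0.30 to -0.16) and -0.02 at 55 to 60 Mb (-0.12 to 0.11), where that of the reads was -0.66 and 0.43. On chromosome 5 it was -0.14 at 50 to 55 Mb (-0.37 to -0.02) and 0.03 from 60 Mb on (-0.02 to 0.08), where that of the reads was -0.67 and 0.60. In the upper stretches the intervals for fold enrichment included 0, and on chromosome 7 the sign was opposite to that of the reads. In both lower stretches the median background of zcrest 2 at the matched pairs was the floor of 2.01 reads. A background below the floor cannot enter the fold enrichment.

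**Figure D5:**
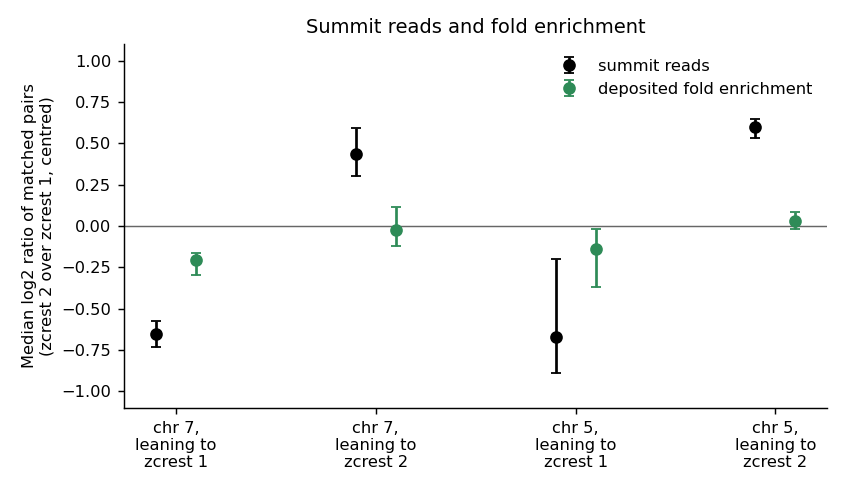
Median centred log2 ratio, zcrest 2 over zcrest 1, of summit reads (black) and of deposited fold enrichment (green) over the matched pairs of the 4 stretches, with order-statistic 95% intervals over pairs. Summit reads run from -0.67 to 0.60 and fold enrichment from -0.21 to 0.03.

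The strongest peaks of each stretch were shared between the lines. That of zcrest 1 on chromosome 7 at 25 to 45 Mb, at 36570328 to 36571091, had 95 reads at its summit and a 13.8-fold enrichment. Its counterpart in zcrest 2 had 31 reads and was 9.94-fold enriched. The strongest of zcrest 2 in that stretch, at 25134694 to 25135226, had 48 reads and its counterpart 35. It ranked 2568 in the list of zcrest 2, whereas the strongest of zcrest 1 ranked 262. The strongest peaks at 55 to 60 Mb ranked higher: the one of zcrest 1, at 56289659 to 56290364, had 120 reads and rank 180, against 142 reads in zcrest 2, and the one of zcrest 2, at 56716835 to 56717706, had 145 reads and rank 21, against 54 in zcrest 1.

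On chromosome 5 the strongest peak of zcrest 1 at 50 to 55 Mb lay at 52657852 to 52658430, with 81 reads against 40 in zcrest 2. That of zcrest 2 lay at 52469014 to 52469786, with 87 reads against 72 in zcrest 1. Its log2 ratio of 0.19 lay above the median of its stretch and was the highest among the 13 pairs there with at least 60 reads in total. From 60 Mb on, 1 region at 64236648 to 64237229 in zcrest 1 was the strongest of both lines, with 155 reads in zcrest 1 and 142 in zcrest 2 (log2 -0.21), below 0 where the median of its stretch was above it.

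Pairs of at least 60 summit reads in total gave the extremes of each stretch. The lowest ratio on chromosome 7 at 25 to 45 Mb was at 40541171 to 40542032, where zcrest 1 had 77 reads and zcrest 2 had 12 (log2 -2.77). The highest was at 42998368 to 42998944, with 30 and 49 reads (log2 0.62). At 55 to 60 Mb the highest was at 56049025 to 56049326 in zcrest 1, with 13 and 83 reads (log2 2.59), and the lowest at 58623371 to 58623999, with 54 and 12 (log2 -2.26). As the extremes of 86 and 50 pairs, these regions lie away from the median of their stretch by selection. At 55 to 60 Mb they were large in both directions, and each rested on 12 or 13 reads in 1 line.

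The extremes of chromosome 5 were found in the same way. At 50 to 55 Mb the lowest pair, at 50366662 to 50367154, had 59 reads in zcrest 1 and 12 in zcrest 2 (log2 -2.39), and 13 pairs had enough reads to be compared. From 60 Mb on the highest of 205 pairs, at 71488703 to 71488987 in zcrest 1, had 14 and 55 reads (log2 1.89), and the lowest, at 74647749 to 74648376, had 75 and 22 (log2 -1.86).

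The strongest single-line peaks of a stretch come from groups of unequal size, and a larger group tends to hold stronger extremes. The stretches were also picked by the read ratio, so the order given here is not a separate result. In reads, the strongest single-line peaks followed the lean of their stretch. Those of zcrest 1 on chromosome 7 at 25 to 45 Mb were at 34913539 to 34914663, with 95 reads and the nearest peak of zcrest 2 at 79.1 kb, and at 38830329 to 38830915, with 54 reads and 113 kb. Those of zcrest 2 were at 38061298 to 38061745 and 30247353 to 30247863, with 32 and 30 reads and a peak of zcrest 1 within 5.05 and 8.93 kb. At 55 to 60 Mb the 2 of zcrest 1, at 56927158 to 56927519 and 58923322 to 58923897, had 28 reads each. The 2 of zcrest 2, at 58906886 to 58907815 and 57959228 to 57959799, had 57 and 47.

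On chromosome 5 at 50 to 55 Mb the strongest single-line peaks of zcrest 1 were at 52009144 to 52009575 and 52589768 to 52590432, with 45 and 50 reads. Those of zcrest 2 were at 54893655 to 54894399 and 54374750 to 54375088, with 27 and 24. In the upper stretch zcrest 1 also had strong peaks of its own, at 66213375 to 66213859 with 55 reads and at 73573437 to 73573973 with 56. Those of zcrest 2, at 70204347 to 70204738 and 64629881 to 64630614, had 66 and 61 reads, with the nearest peak of zcrest 1 at 27.9 and 10.7 kb.

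Set beside the other chromosomes, chromosomes 7 and 5 had the widest internal spread of the read ratio, the property they were chosen for. Between the lowest and the highest median of 5-Mb windows with at least 20 pairs lay 1.38 on chromosome 7 (-0.94 to 0.44) and 1.31 on chromosome 5 (-0.67 to 0.64), where the median over the 25 chromosomes was 0.62 and the narrowest 0.32. Chromosomes 5 and 7 also had the most windows of 5 Mb, 16 each, and a range tends to widen with the number of windows. Windows both below -0.3 and above 0.3 occurred on 6 of the 25. Over the whole of chromosomes 5 and 7 54.3% of the peaks of zcrest 1 (53.1% to 55.5%) and 63.98% of those of zcrest 2 (62.7% to 65.2%) were shared, and zcrest 1 held 60.9% of the single-line peaks (59.4% to 62.3%). Both shares of overlap had intervals that included the value over the genome.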

How the data were processed

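ATAC-seq peak lists of 2 zebrafish melanoma cell lines, 1 library each, were used. MACS2 2.1.0 on Zv9 made the lists, per the submitters' processing notes, and the deposited peak names carry each library's own name. For aligner, duplicate handling and read shift the entry is: not given in the sources used here. The deposited columns were a score, a fold enrichment (a ratio), and -log10 p and -log10 q, all as the authors made them. The lowest -log10 q was 1.31 and 1.32.

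Summit reads and local background were solved for each peak as the whole-number pileup, up to 800, that gives both its fold enrichment and its -log10 p. This met the deposited -log10 p within 0.001 in 100% of the peaks of both lists. Summits set a peak's window. Intervals of 95% are exact binomial for shares, Poisson for counts, Newcombe for differences of shares and order-statistic for medians. No test was made, since each line has 1 library. The regions to name followed 1 rule: in each stretch the strongest peak by -log10 q of each line, its 2 strongest single-line peaks, and the pairs of highest and lowest ratio with at least 60 reads. The chromosomes, stretches and alternatives were chosen with earlier results of these data known. The scripts (Python 3.11.15, scipy 1.17.1) were tested on simulated data. The alternatives changed the peak threshold, list length, overlap and distance rules, centring, matching, edges, and raised-background windows.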

Additional observations from a re-analysis of the deposited data

How the results depend on the processing

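No paired analysis was possible because each line has 1 library. Of 124 alternative values, 92 stayed within the interval of the main value (counts within 1.5 times, borders within 1 Mb), 31 moved beyond it and 1 reversed; 2 alternatives, leaving out the crowded windows and using pairs in which neither peak overlaps a second, were chosen after seeing the data. The cause of the changes was not tested. Reversed was the median log2 ratio of chromosome 7 at 55 to 60 Mb, -0.022 with fold enrichment in place of summit reads; in the other stretches that measure gave -0.21 (chromosome 7 at 25 to 45 Mb), -0.14 and 0.032 (chromosome 5). Centred on the ratio of genome-wide backgrounds, the medians were -0.92 and 0.16 on chromosome 7 and -0.94 and 0.33 on chromosome 5. With pairs of at least 60 reads they were -1.09 and 0.68 on chromosome 7 and -0.90 on chromosome 5 at 50 to 55 Mb. With a -log10 q of at least 10 in both lists, the ratio of peak numbers was 0.283 on chromosome 7 at 25 to 45 Mb and 0.307 and 1.16 on chromosome 5, zcrest 1 held 41.1% of the single-line peaks of chromosome 5 from 60 Mb on, and 1619 and 1371 peaks were left on chromosome 5 and 1394 and 884 on chromosome 7. At that limit the whole lists held 29003 peaks of zcrest 1 and 21704 of zcrest 2, a lower ratio than the 0.839 of the full lists. Lists of equal length have as many peaks of either line over the genome, so their ratios also have another reference than 0.839. With lists of equal length the ratio was 0.410 on chromosome 7 at 25 to 45 Mb and 1.63 on chromosome 5 from 60 Mb on, and the shares of zcrest 1 were 90.1% and 20.5%. With single-line peaks more than 5 kb away the latter was 21.4%. Without the crowded windows the ratio on chromosome 7 at 25 to 45 Mb was 0.419 and the share 90.1%. With summits within 100 bp the difference in overlap of zcrest 1 was -30.5 points on chromosome 7 and -28.3 on chromosome 5, and with 50% reciprocal overlap that of zcrest 2 on chromosome 7 was 19.9. The border lay at 45.6 Mb on chromosome 7 and 51.9 Mb on chromosome 5 with fold enrichment, and at 56.6 Mb on chromosome 5 with single-line peaks. None of the 4 stretches held a 500-kb window of raised background, so leaving such windows out could change no value there. Those values are counted among the 92. So are the values without the crowded windows for chromosome 7 at 55 to 60 Mb and chromosome 5 at 50 to 55 Mb, which hold none of these windows. Read numbers outside called peaks were not analysed here, so a missing counterpart does not show that a region was closed.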
